A study of Canis lupus familiaris with 29 samples.

Results

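TROAP (trophinin associated protein, also called tastin; ENSCAFG00000008613) was followed as 1 gene of the 24580 genes measured in lymph node RNA from dogs with lymphoma. The gene was chosen because the study listed it among the genes that differed between Day 4 and Day 0 in the placebo group, so its placebo values are given as a description, with no test. The valspodar libraries did not choose it, and its change in those dogs was tested. The files name genes by identifier only, and the symbol was taken from a supplementary table of the study, which places the gene at chr27:5278359-5289070 of CanFam3, a locus of 10712 bases. In the RefSeq annotation of the dog assembly UU_Cfam_GSD_1.0, its nearest protein-coding neighbours are PRPH and C1QL4.

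The dogs had newly diagnosed large B-cell lymphoma and came from 3 trial sites, Minnesota (dog names beginning with MN), Purdue (PD) and Penn (PENN). They were randomized to capsules of placebo or of valspodar, which blocks ABCB1, a pump that exports drugs from cells, at 7.5 mg/kg by mouth 2 times a day, and no dog had yet received doxorubicin when the Day 4 tissue was taken. The 29 libraries came from 15 dogs: 9 valspodar dogs with both days, 5 placebo dogs with both days, and the placebo dog PD04 with Day 0 only. Where an age was given, the placebo dogs were 5.3 to 10.4 years old (5 of 6 dogs) and the valspodar dogs 3.8 to 11.6 years old (9 of 9 dogs). The dogs were 5 Golden Retrievers, 3 Labrador Retrievers, 3 Vizslas, 1 Beagle, 1 English Bulldog and 1 Standard Poodle. For 1 dog no breed was reported. Day 0 tissue came from an incisional wedge biopsy and Day 4 tissue from a tru-cut (needle core) biopsy, so the time point and the kind of biopsy cannot be told apart.

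TROAP protein is found on the mitotic spindle and at centrosomes, where it is needed for a bipolar spindle to form. Its transcript is made mainly by dividing cells, late in the cell cycle, and it is commonly read with other mitotic genes as a sign of proliferation. In a lymph node filled by a large B-cell lymphoma, the lymphoma cells are expected to be most of the dividing cells. The RNA came from whole tissue, so a larger number of cells with TROAP and more TROAP RNA per cell cannot be told apart.

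Levels are in FPKM, sequenced fragments per length of exon, scaled to the fragments mapped in the library, which allows comparison between genes of different length. The number of reads per library is not known from such values. From the spacing of low values, the relative depth was lowest in the Day 4 library of MN02, and in the 28 others it lay between 0.861 and 1.80 of the median library. Median-ratio scaling factors were all between 0.991 and 1.02. The 10 most abundant genes held from 9.86% to 40.6% of all FPKM, the highest share being in PENN04 at Day 4. No table used here paired the identifiers with symbols beyond those of the study's own lists, so other mitotic genes, B-cell markers and T-cell markers could not be identified, and neither the mitotic label of TROAP nor the tissue label was checked against them.

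TROAP was measured in every library. Its level ranged from 3.53 FPKM in PD01 at Day 0 to 37.97 FPKM in PENN04 at Day 4, with a median of 13.1 FPKM over the 29 libraries. Within a library it stood above 61.9% to 88.8% of all 24580 genes. Of these genes, 5823 were at 0 in every library. Against the 9063 other genes averaging 5 FPKM or more, whose median was 21.7 FPKM, the mean level of TROAP, 14.6 FPKM, was lower.

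In the placebo group at Day 0, the lowest level was 3.73 FPKM in PD04, the median 8.33 FPKM and the highest 12.6 FPKM in PENN05 (mean 8.76 ± 3.11, SD, n = 6). At Day 4 the placebo dogs had 12.6 FPKM in MN08, 13.5 FPKM in MN09, 20.3 FPKM in PENN05, 20.5 FPKM in MN05 and 37.97 FPKM in PENN04 (mean 21.0 ± 10.2, SD, n = 5). The ranges of the days met only at their ends, where PENN05 at Day 0 (12.63 FPKM) lay just above MN08 at Day 4 (12.56 FPKM). These are the values that chose the gene.

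In the valspodar group at Day 0, the lowest level was 3.53 FPKM in PD01, the median 13.1 FPKM and the highest 22.4 FPKM in MN03 (mean 12.6 ± 5.97, SD, n = 9). At Day 4 the lowest was 5.98 FPKM, again in PD01, the median 18.3 FPKM and the highest 33.5 FPKM in PENN03 (mean 16.8 ± 8.27, SD, n = 9). The valspodar ranges overlapped broadly between the days, and at Day 4 only PENN03 lay above the highest Day 0 dog. The 4 group means were ordered placebo Day 0, valspodar Day 0, valspodar Day 4 and placebo Day 4. The first gap, 3.83 FPKM, was larger than the smaller SD of its pair (3.11 FPKM) but smaller than the larger one, and the gaps of 4.25 and 4.13 FPKM were each smaller than both SDs.

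**Figure D1:**
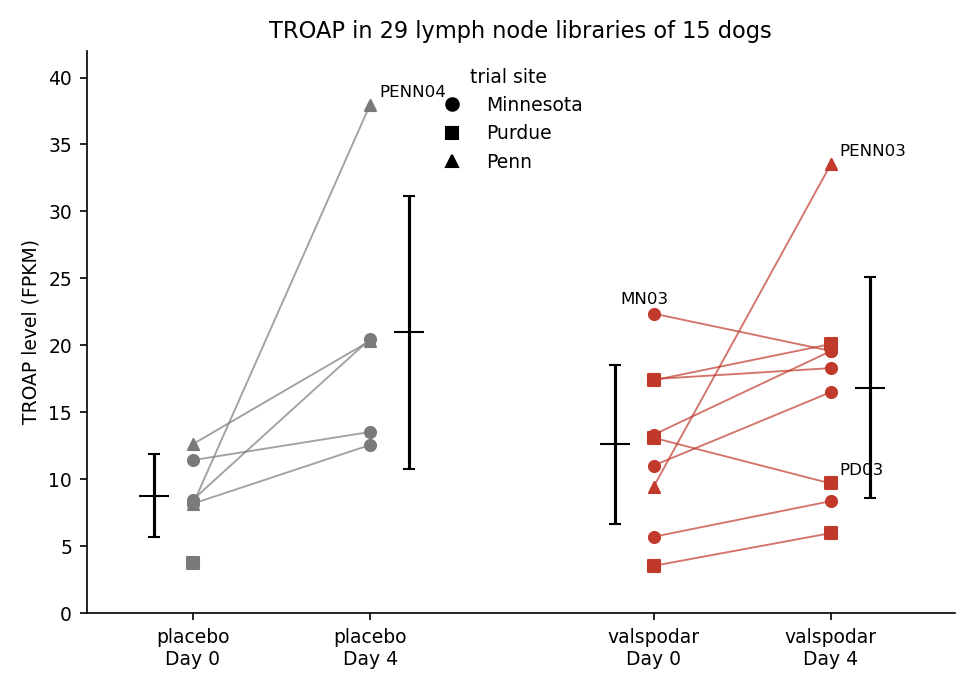
TROAP level (FPKM, linear axis) in each of the 29 libraries, with a line joining the 2 days of a dog, grey for placebo and red for valspodar, and the marker giving the trial site. Black bars show the group mean ± SD. PENN04 (37.97 FPKM) and PENN03 (33.5 FPKM) stand above the others at Day 4, and the lines of MN03 and PD03 fall.

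At Day 0 the valspodar group averaged 0.40 higher than the placebo group on the log2(FPKM + 1) scale, and at Day 4 it averaged 0.34 lower (a valspodar minus placebo difference of -0.34). Both differences were smaller than the pooled SD between dogs, 0.68 on each day, and they share the placebo libraries that chose the gene, so they carry no test. Of the 9 valspodar dogs at Day 0, 3 lay inside the placebo range, 5 above it and 1 below it. At Day 4, 6 lay inside it, 3 below it and 0 above it. Single placebo dogs set much of both values: the Day 0 difference was 0.20 without PD04, and the Day 4 difference was -0.11 without PENN04. Valspodar dogs also moved the Day 4 difference, which was -0.19 without PD01.

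Dog by dog, TROAP was higher at Day 4 in 12 of 14 dogs, in 5 of 5 given placebo and in 7 of 9 given valspodar. The placebo pairs chose the gene, so the placebo count and the pooled count are descriptions only. In the placebo group TROAP went from 8.14 to 37.97 FPKM in PENN04, from 8.48 to 20.5 FPKM in MN05 and from 12.6 to 20.3 FPKM in PENN05. The changes in MN08 (8.18 to 12.6 FPKM) and MN09 (11.4 to 13.5 FPKM) were the smallest of the group. On the log2(FPKM + 1) scale the placebo changes ranged from 0.23 to 2.09 (mean 0.94 ± 0.73, SD, n = 5), and PENN04 alone made up 53.2% of the summed FPKM increase.

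The valspodar dogs were more uneven. PENN03 went from 9.44 to 33.5 FPKM, which was 54.2% of the summed increase of the 7 dogs with a higher Day 4 level. A group of 4 dogs had increases of similar ratio, PD01 from 3.53 to 5.98, MN02 from 11.02 to 16.5, MN06 from 13.3 to 19.6 and MN10 from 5.70 to 8.36 FPKM. Smaller differences were seen in PD05 (17.4 to 20.1 FPKM) and MN07 (17.5 to 18.3 FPKM). TROAP was lower at Day 4 in MN03, from 22.4 to 19.6 FPKM, and in PD03, from 13.1 to 9.69 FPKM. MN03 held the highest level of all at Day 0. The Day 4 level of MN02 comes from the library with the lowest estimated depth.

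Tested with limma over the 11677 genes averaging 1 FPKM or more, TROAP in the valspodar group was 0.40 ± 0.33 (SE) higher at Day 4 on the log2(FPKM + 1) scale, with a 95% interval from -0.29 to 1.09 (limma, Benjamini-Hochberg adjusted p = 1). The change did not pass the threshold of 0.05. Of all genes tested, 0% passed the adjusted threshold in this comparison and 1.34% had an unadjusted p under 0.05; TROAP was not among them. Over dogs, the mean change was 0.40 ± 0.61 (SD, n = 9), and an exact two-sided sign-flip permutation test gave p = 0.0586, where 9 dogs allow a smallest p of 0.00391. The fit with the dog as a block gave the same change with an SE of 0.18 (limma, adjusted p = 0.451). Without PENN03 the mean change of TROAP was 0.23 ± 0.38 (SD, n = 8; exact sign-flip permutation p = 0.117).

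The change of TROAP was also set against that of the other genes in the same dog, since a gene can move with its whole library. The median change of the 11677 genes lay between -0.042 and 0.024 in the 14 dogs. In the valspodar group the change of TROAP was above that of 98.5% of genes in PENN03, 97.7% in MN10, 95.8% in PD01, 92.4% in MN02 and 91.8% in MN06. It was nearer the middle in PD05 (72.5%), MN07 (60.0%) and MN03 (31.3%), and in PD03 it stood near the lower end (5.80%). So a dog with a modest change in FPKM, such as MN10, could still have TROAP near the top of its genes. In the placebo group the corresponding shares were 98.3% in MN05, 97.6% in PENN04, 97.2% in MN08, 93.8% in PENN05 and 77.1% in MN09.

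**Figure D2:**
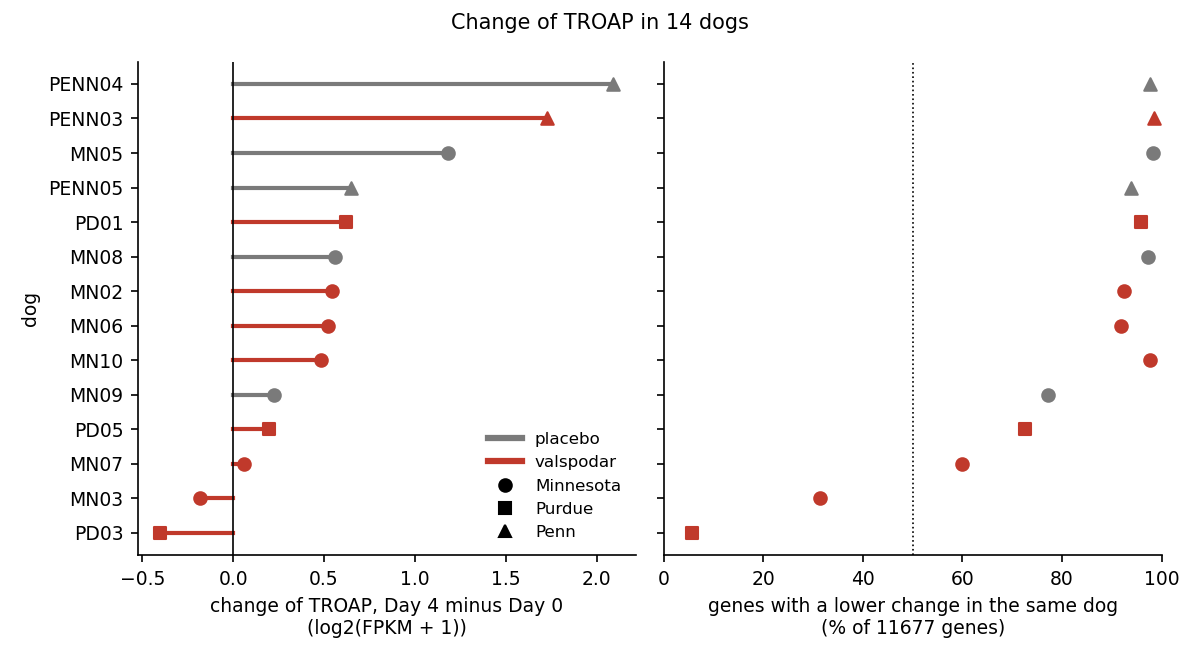
Left, the change of TROAP from Day 0 to Day 4 on the log2(FPKM + 1) scale in each of 14 dogs, grey for placebo and red for valspodar, with the marker giving the trial site. Right, the percent of the 11677 genes whose change in the same dog was lower than that of TROAP, with the middle dotted. The changes run from -0.40 in PD03 to 2.09 in PENN04.

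The trial sites were not spread evenly over the treatment groups, so the changes were also read within each site. At Minnesota the mean log2 change of TROAP was 0.66 ± 0.48 (SD, n = 3) with placebo and 0.29 ± 0.33 (SD, n = 5) with valspodar. At Purdue it was 0.14 ± 0.51 (SD, n = 3) with valspodar, and no placebo dog had both days. At Penn the placebo changes were 0.65 and 2.09, and the single valspodar dog, PENN03, had 1.73. At Day 4 the 3 Penn dogs had 20.3 to 37.97 FPKM, against 8.36 to 20.5 FPKM in the 8 Minnesota dogs and 5.98 to 20.1 FPKM in the 3 Purdue dogs. At Day 0 the Penn dogs (8.14 to 12.6 FPKM) lay inside the Minnesota range (5.70 to 22.4 FPKM). The 5 Golden Retrievers ranged from 3.73 to 17.5 FPKM at Day 0, against 3.53 to 22.4 FPKM over all 15 dogs. Breeds were not spread evenly over the treatment groups either: of the Golden Retrievers, PD04 was given placebo, and MN06, MN07, PD03 and PD05 were given valspodar.

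The Day 4 level was compared with the Day 0 level of the same dog. Over all 14 dogs, which include the placebo pairs that chose the gene and so carry no test, Pearson's r was 0.45 and Spearman's rho 0.22, and without MN03 and PD01 r was 0.12. Over the 9 valspodar dogs, the Day 4 level of TROAP followed the Day 0 level with Pearson's r = 0.66 (exact permutation p = 0.0550) and Spearman's rho = 0.55 (exact permutation p = 0.133), on the log2(FPKM + 1) scale. The relation rested on MN10 and PD01, the dogs with the lowest Day 0 levels, and without them r was -0.19 (exact permutation p = 0.743, n = 7).

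The level of TROAP was compared with the 2 outcomes given for each dog, the duration of remission and overall survival, which makes 4 relations with the 2 days. At Day 0 Pearson's r was -0.013 with remission (n = 14) and 0.089 with survival (n = 15), and at Day 4 it was 0.15 with remission (n = 13); by permutation their p-values were 0.964, 0.752 and 0.612 (adjusted p = 0.964 for each). Spearman's rho was -0.024, 0.089 and 0.011 (permutation p = 0.939, 0.751 and 0.979, adjusted p = 0.979 for each). Without the 2 dogs whose level was farthest from the median, r was 0.15, 0.066 and 0.22. None of these 3 relations passed the threshold.

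The level at Day 4 and survival gave r = 0.53 over 14 dogs (permutation p = 0.0536, adjusted p = 0.214) and rho = 0.41 (permutation p = 0.148, adjusted p = 0.590). This relation did not pass the threshold either. Without MN10 and PD01, the dogs farthest from the median level, r was 0.33 (permutation p = 0.302), so that its size rested in part on those 2 dogs, which had low TROAP and short survival. Within the 8 Minnesota dogs r was 0.24 (exact permutation p = 0.580, adjusted p = 0.912) and rho 0.12 (exact permutation p = 0.793, adjusted p = 0.977), and without MN08 and MN10 the direction turned, with r = -0.34 (exact permutation p = 0.521). The other 3 Minnesota relations had r from 0.048 to 0.15 (exact permutation p from 0.730 to 0.912, adjusted p = 0.912 for each) and rho from -0.21 to 0.024 (exact permutation p from 0.619 to 0.977, adjusted p = 0.977 for each). MN06 had survival and remission of more than 568 days and entered at 568.

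**Figure D3:**
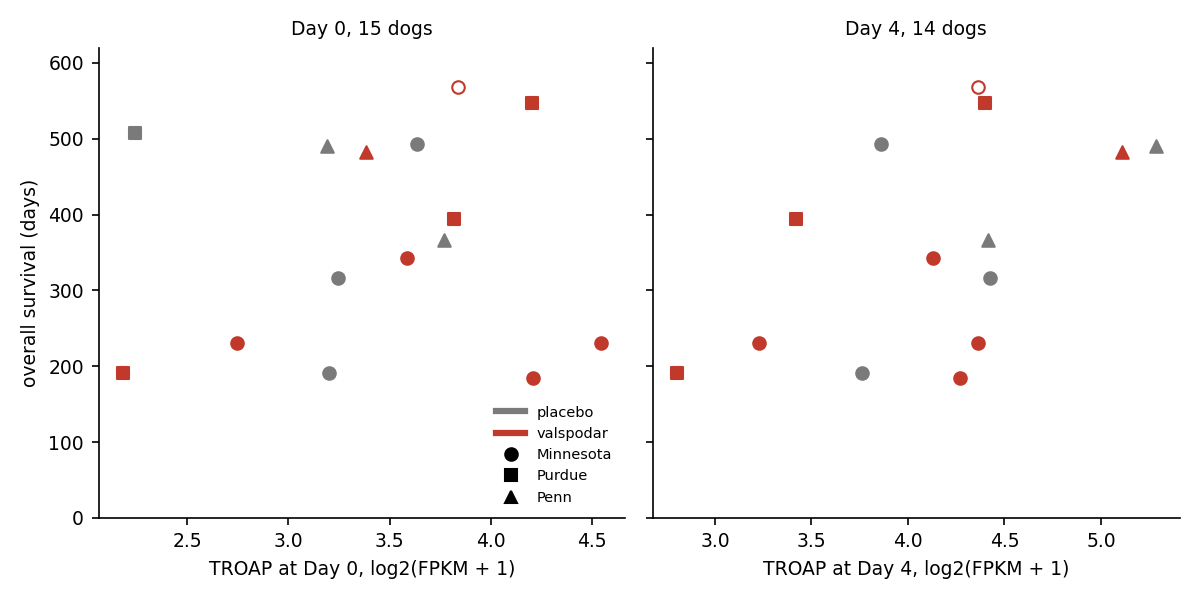
Overall survival in days against the level of TROAP on the log2(FPKM + 1) scale at Day 0 (left, 15 dogs) and at Day 4 (right, 14 dogs), grey for placebo, red for valspodar, with the marker giving the trial site and the open circle MN06, whose time is a lower limit. At Day 4, MN10 and PD01 lie at the lower left, and r is 0.53.

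Genes with a pattern like that of TROAP were sought among the 9063 other genes that averaged 5 FPKM or more. Likeness was Pearson's r on the log2(FPKM + 1) scale, over the 29 libraries for the level and over the 14 dogs for the change. Libraries of the same dog are not independent and all genes of a library share its depth and cell makeup, so r is a description, with no p. In level, 303 genes had r above 0.5, 26 above 0.7 and 2 above 0.8, while 252 had r under -0.5 and 9 under -0.7; the median was -0.017. In change, the spread of r was wider with fewer points: 227 genes were above 0.7, 54 above 0.8 and 3 above 0.9, and 100 were under -0.7.

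**Figure D4:**
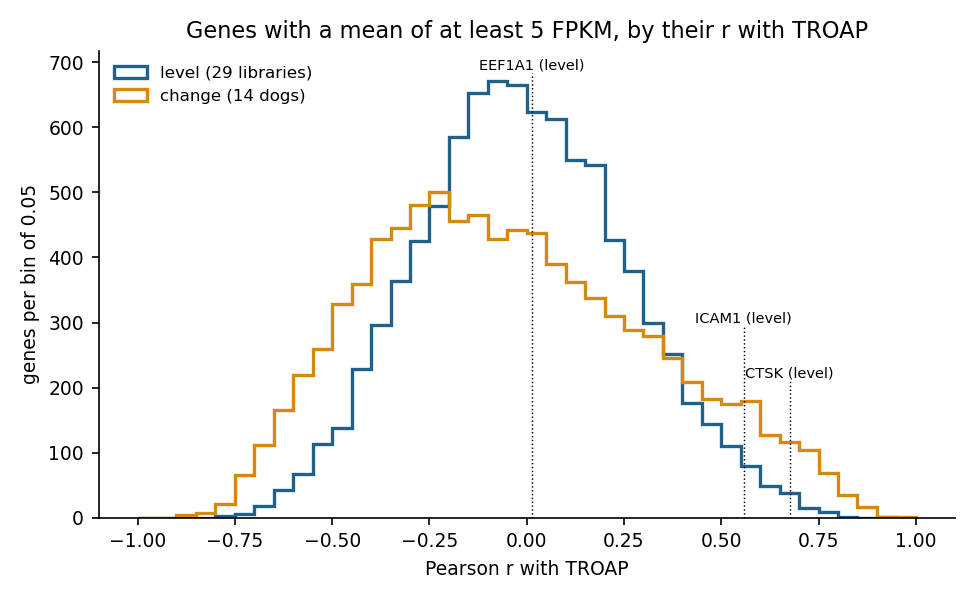
Number of genes in each bin of 0.05 of Pearson's r with TROAP, for the level over 29 libraries (blue, 9063 genes) and for the change over 14 dogs (orange, 9062 genes, since 1 gene had no change in any dog). Dotted lines mark the r in level of EEF1A1 (0.013), ICAM1 (0.56) and CTSK (0.68); few genes lie to the right of CTSK.

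The gene nearest to TROAP in level was ENSCAFG00000017924, for which the files used here give no symbol, with r = 0.90 and Spearman's rho = 0.87. Its r was 0.94 over the means of the 15 dogs, 0.89 after centring each group and day on its mean, and between 0.87 and 0.95 with each dog left out. Like TROAP, it was lowest in PD01 at Day 0 (7.23 FPKM) and highest in PENN04 at Day 4 (67.7 FPKM, from 17.1 FPKM at Day 0). In PENN03, where the Day 4 level of TROAP was 3.55 times the Day 0 level, this gene went only from 22.7 to 26.6 FPKM, and its r in change was 0.80 over all dogs and 0.55 over the 9 valspodar dogs. The second gene in level, ENSCAFG00000019611, had r = 0.84 in level and in change alike. The other 8 of the 10 nearest genes in level had r from 0.75 to 0.80, and mean levels of the 10 ranged from 5.14 to 57.2 FPKM.

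In change the nearest gene was ENSCAFG00000020331 with r = 0.95, followed by ENSCAFG00000018892 with r = 0.93. The first of these moved little in size: it went from 11.2 to 17.4 FPKM in PENN04 and from 11.2 to 15.5 FPKM in PENN03. In PD03 and MN03, where TROAP was lower at Day 4, it was lower too, from 15.5 to 13.3 and from 20.5 to 16.7 FPKM. Its r stayed between 0.92 and 0.98 with each dog left out, and was 0.92 over the 9 valspodar dogs, which are among the 14 by which this gene was picked. In level the same gene followed TROAP less closely, with r = 0.60. The other 8 of the 10 nearest genes in change had r from 0.87 to 0.91.

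The 10 nearest in level and the 10 nearest in change shared 1 gene, ENSCAFG00000001621 (r = 0.76 in level and 0.89 in change), which is 10% of each list. The lists of 50 shared 11 genes, or 22% of each. The 10 nearest in level had r from 0.58 to 0.89 in change, at places 6 to 538 of 9062, while the 10 nearest in change had r from 0.16 to 0.76 in level, at places 9 to 2375 of 9063. All 10 of the nearest genes in level had a higher mean at Day 4 in the placebo dogs and 9 of 10 in the valspodar dogs, with median log2 changes of 0.41 and 0.10, against -0.007 and -0.022 over all 9063 genes. That direction follows in part from how the 10 were chosen. The make-up of the lists depended on single dogs and on the measure. With Spearman's rho, 5 of the 10 in level and 3 of the 10 in change were again among the nearest 10. In level the number was 5 without PD01, 6 without PENN03 and 6 without PENN04. In change it was 5 without PD05, 6 without PENN03, 6 without PENN05 and 5 over the 9 valspodar dogs alone.

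At the other end, ENSCAFG00000009692 had the lowest r in level, -0.79, and ENSCAFG00000017625 followed with -0.77. The first was an abundant gene, with a mean of 110.1 FPKM, and the second had 14.96 FPKM. In change the lowest were ENSCAFG00000030873 with r = -0.89 (mean 475.1 FPKM) and ENSCAFG00000025166 with r = -0.88 (mean 16.8 FPKM). The first of these had a lower Day 4 value in 5 of 5 placebo dogs and 6 of 9 valspodar dogs. The second was a gene of the change only: its r in level was 0.19.

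Symbols were available for 22 other genes, those of the study's own lists, which were chosen on these libraries for their difference between days. Of these, CTSK (cathepsin K, a collagen-degrading protease of macrophages and osteoclasts) was nearest to TROAP in level, with r = 0.68, the 38th highest of the 9063 genes, and r = 0.70 in change. ICAM1 (a leukocyte adhesion receptor), IL18 (a cytokine of myeloid cells) and PLAU (urokinase, a protease) had r of 0.56, 0.53 and 0.53 in level. In change their r was 0.33, 0.50 and 0.41. The complement genes C1QB and C1QC, made by macrophages, had r of 0.44 and 0.46 in level and of 0.41 each in change. Without PENN04, r in change was 0.10 for ICAM1, 0.23 for IL18, 0.25 for PLAU, 0.15 for C1QB and 0.16 for C1QC. EEF1A1 (a translation elongation factor) and CXCR4 (a chemokine receptor of lymphocytes) had r of 0.013 and 0.062 in level. FN1 (fibronectin, a matrix protein; mean 3.49 FPKM, below the level set for likeness) had r = 0.21 in level and -0.26 in change, and the latter depended on single dogs, being -0.56 without PENN04, 0.13 without PD03 and -0.62 over the 9 valspodar dogs.

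The neutrophil genes of the study's lists had a lower r with TROAP in level than CTSK. MMP9 (a gelatinase stored in neutrophil granules) had r = 0.31 in level and 0.73 in change, CSF3R (the receptor of granulocyte colony-stimulating factor) 0.30 and 0.61, SERPINA1 (alpha-1 antitrypsin) 0.34 and 0.56, and ITGAM (an integrin chain of myeloid cells; mean 1.84 FPKM, below the level set for likeness) 0.31 and 0.63. These 4 genes and CTSK come from the same placebo comparison as TROAP, so their joint change in placebo dogs was fixed by that choice. Over the 9 valspodar dogs alone the r in change was 0.56 for MMP9, 0.25 for CSF3R, 0.31 for SERPINA1, 0.15 for ITGAM and 0.54 for CTSK. PENN04, a placebo dog, carried much of the pooled values. Without that dog, r in change was 0.50 for CTSK, 0.47 for MMP9, 0.26 for CSF3R, 0.23 for SERPINA1 and 0.22 for ITGAM. In level, r without PENN04 was 0.60 for CTSK, 0.027 for MMP9, 0.11 for CSF3R, 0.18 for SERPINA1 and 0.082 for ITGAM.

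CTSK and TROAP also parted in single dogs. In PENN04 CTSK went from 24.4 to 197.6 FPKM and in PENN03 from 13.2 to 48.9 FPKM, the dogs with the largest differences in TROAP. In MN02, however, CTSK went from 22.7 to 96.6 FPKM while TROAP went from 11.02 to 16.5 FPKM. In MN06 CTSK was lower at Day 4 (26.8 to 21.3 FPKM) and TROAP higher (13.3 to 19.6 FPKM), and in MN03 the reverse was seen, with CTSK from 121.5 to 171.7 FPKM. Only PD03, of the 9 valspodar dogs, had both genes lower at Day 4.

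**Figure D5:**
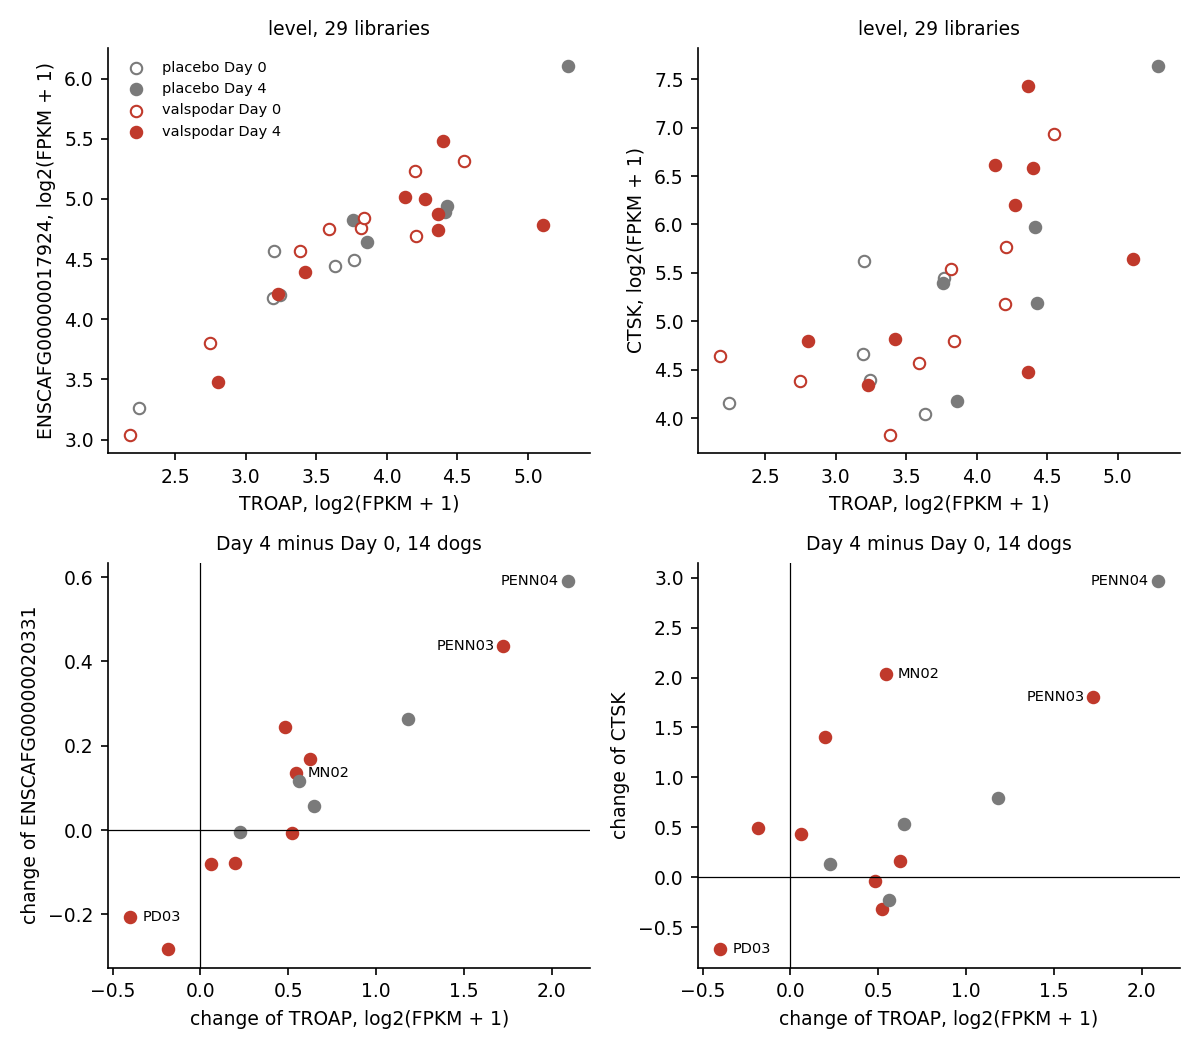
Top, the level of ENSCAFG00000017924 (left) and of CTSK (right) against that of TROAP in 29 libraries, open for Day 0 and filled for Day 4. Bottom, the change of ENSCAFG00000020331 (left) and of CTSK (right) against the change of TROAP in 14 dogs. All axes are on the log2(FPKM + 1) scale, with placebo in grey and valspodar in red; r is 0.90 and 0.68 in the upper plots and 0.95 and 0.70 in the lower ones.

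Of the 10 neutrophil and macrophage markers listed for this report, 5 had a symbol (C1QB, C1QC, CSF3R, ITGAM and MMP9), and all of these belong to the study's lists. None of the 5 was at 0 in any library, but the lowest level was 0.017 FPKM for CSF3R and 0.14 FPKM for MMP9. Their summed level ranged from 17.3 to 173.6 FPKM in placebo dogs at Day 0, 46.2 to 300.1 at Day 4, and in valspodar dogs from 35.2 to 289.2 at Day 0 and 19.9 to 604.9 at Day 4. C1QC and C1QB weighed most in this sum, with median levels of 59.7 and 28.7 FPKM. The medians were 3.06 FPKM for CSF3R, 1.53 FPKM for MMP9 and 1.10 FPKM for ITGAM, although single libraries reached 72.8 FPKM for CSF3R and 111.1 FPKM for MMP9. The log2 of this sum had r = 0.51 with TROAP in level over 29 libraries, r = 0.53 in change over 14 dogs and r = 0.35 in change over the 9 valspodar dogs. By limma, 0 of 5 passed the adjusted threshold between the days in the fits of placebo dogs, of valspodar dogs or of all dogs, and 0, 0 and 1 of 5 had an unadjusted p under 0.05. Over all 11677 genes, 0% passed the adjusted threshold in each of the 3 fits, and 3.68%, 1.34% and 4.27% had an unadjusted p under 0.05. Fits that blocked on the dog gave 0, 1 and 3 of the 5 markers at an unadjusted p below 0.05, each higher at Day 4, beside 6.88%, 11.3% and 16.6% of all genes. The study chose these 5 genes for their difference between the days of these libraries, so their counts and medians are a description and nothing is read from them. The median log2 change of the 5 was 0.70, 0.71 and 0.62, against 0.002, -0.008 and -0.005 over all genes. PENN04 carried the placebo value: without that dog the placebo median of the 5 was 0.037. The part of these cells in the TROAP values was not tested.

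Among technical measures, the share of FPKM held by the 10 most abundant genes had r = 0.39 with the level of TROAP over the 29 libraries, the relative depth r = -0.11 and the summed FPKM r = 0.12. The library with the highest TROAP level, PENN04 at Day 4, was also the one with the highest share, 40.6%. In PENN03 at Day 4, the library second highest in TROAP, the share was 17.2%. The part of this share in the TROAP values was not tested.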

How the data were processed

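RNA of 29 lymph node libraries was analysed. Per the labels and the study's methods, the authors trimmed reads with Trimmomatic 0.33, mapped them to CanFam3 with HISAT2 2.0.2 and deposited FPKM values made with Cufflinks 2.2.1 and Cuffnorm. Replicates were not pooled. Corrections for reads of near-identical genes are contained in those values.

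Here, limma 3.58.1 (R 4.3.3; eBayes with a trend) was applied to log2(FPKM + 1) of the 11677 genes averaging 1 FPKM or more, with Benjamini-Hochberg adjustment over all of them and a threshold of 0.05. All else was done in Python 3.11.15 (pandas 2.3.3, numpy 2.4.6). Permutation tests were two-sided, exact for n under 10 and with 100000 permutations otherwise. The procedures were tested on simulated data. The dog pairs the libraries, and deviations of same-dog libraries correlated with a median of 0.50 (0.20 to 0.68, 14 pairs); the main fit has no dog term, as the study's comparison names none.

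TROAP, the gene lists and the tests were chosen with earlier results of these data known. Genes were named by rule: the highest and lowest r with TROAP (the first 2 of each by identifier) and, since the identifiers could not be paired with symbols (0 of 24580), the symbol genes of the study's lists in place of lists of mitotic, replication, B-cell, T-cell, stromal and red cell genes. ENSCAFG00000001621 was named after its values were seen. The alternatives were a pseudocount of 0.1, other filters, quantile and median-ratio scaling, a dog block, all 4 groups in one fit, and each dog left out. No sequence is shown.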

Additional observations from a re-analysis of the deposited data

Results flagged for a closer look

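Within groups of 4 to 10 samples, the gap between an extreme dog and its nearest neighbour was divided by the range of the group. Of the 6 sets of TROAP values searched, 1 exceeded the 95% critical value. It was the change of TROAP in the valspodar dog PENN03, at 1.73 on the log2(FPKM + 1) scale, where the next dog, PD01, had 0.62 (a ratio of 0.519 against a critical value of 0.493 for 9 dogs). Chance marks about 1 in 20 such groups. PENN04 at Day 4 in the placebo group, with a ratio of 0.688, stayed below the critical value of 0.71 for 5 dogs.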

How the results depend on the processing

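The TROAP change with valspodar stayed upward under all 7 alternative settings (0.38 to 0.43) and with each dog left out (0.23 without PENN03 to 0.50 without PD03). It did not pass the adjusted threshold of 0.05 in any of them. The filters, the dog block and the fit of all 4 groups could not alter its size, 0.40, since every valspodar dog had both days. In the placebo group the TROAP change was 0.94 to 1.23 over the alternatives, 0.94 with the dog as a replicate block, and 0.90 to 1.34 with each dog left out. The replicate block left PD04 out and changed no call of TROAP, whose valspodar change remained 0.40 (adjusted p = 0.451), but the number of genes with an unadjusted p under 0.05 in the valspodar group went from 157 to 1314. The valspodar minus placebo difference ranged from 0.20 to 0.58 at Day 0 and from -0.49 to -0.11 at Day 4 with each dog left out. The r of TROAP with outcome was near 0 and changed sign with single dogs left out for 3 relations: -0.20 to 0.092 for Day 0 and remission, -0.12 to 0.27 for Day 0 and survival, and -0.0088 to 0.23 for Day 4 and remission. For Day 4 and survival it was 0.43 to 0.59. None passed the adjusted threshold under any setting run. Of the 10 nearest genes in level, 5 stayed among the nearest 10 with Spearman's rho and 5 to 9 with each dog left out. Of those in change, 3 stayed with Spearman's rho, 5 over the valspodar dogs alone and 5 to 10 with each dog left out. The count of myeloid markers past the threshold was 0 under every setting. No more than 1 of all genes tested passed it under any setting, so nothing is read from this count. The number of reads behind a value is unknown, so the counting error of TROAP in a library could not be given. This includes the Day 4 library of MN02, which had the lowest estimated depth.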
